A study of Arabidopsis thaliana with 24 samples.

Results

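The B-box factors of light signalling described here are 10 zinc-finger genes of Arabidopsis thaliana, BBX16, BBX20, BBX21, BBX22, BBX23, BBX24, BBX25, BBX28, BBX29 and BBX31. They were chosen by locus identifier, from the 32 B-box genes of the genome, for roles in light signalling. Of the 10 genes, 8 had a row in a gene table and none had a splicing event, among 4752 genes with a row in any of the 4 deposited tables.

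RNA was sequenced from whole seedlings in 24 libraries, which fell into 8 groups of 3. All 4 lines have the Col-0 background. After a cold period, seeds received white light (50 µmol per m2 and s) for 6 h and then stayed either dark or under red light (19 µmol per m2 and s) for another 60 h. Col-0 is the wild type. MLB makes the red-light receptor phytochrome B (phyB) from the epidermal promoter of ML1, while its own PHYB gene is mutated, which confines phyB to cells that use this promoter. EMS27 is an rrc1 mutant of MLB and carries the same transgene, and rrc1-689 is an rrc1 mutant compared with Col-0. The transgene of MLB and the descent of EMS27 come from general knowledge of the study, since the labels give only the names of these lines. RRC1 is a splicing-related protein that phyB signalling needs. The labels gave 4 °C for the light and dark steps, and the temperature at which the seedlings grew is unclear. Nothing in the labels tells whether replicate libraries were grown as separate cultures, and a p-value here therefore reflects a spread between libraries that may be technical.

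The authors' gene tables compared MLB in red light with MLB in darkness, and MLB with EMS27 in red light, as log2 fold changes. A gene was listed where its absolute log2 fold change was above 1 and its false discovery rate (FDR) below 0.01, and a gene without a row has no value. Neither a level nor a value per library was given for any gene, so the spread of a fold change between libraries is unknown and the depth behind it is too. PHYB had no row in either gene table and RRC1 was not among the genes looked up, which leaves the genotypes unchecked at the level of RNA. Values of Col-0, rrc1-689 and EMS27 in darkness were not analysed here, nor were gene-level values of Col-0 and rrc1-689 in red light.

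B-box proteins fold 1 or 2 zinc-binding domains at their N-terminus, through which they bind other proteins and, with partners, promoters. Several are partners of HY5, the bZIP factor that drives photomorphogenesis, the change from pale elongated growth in the dark to green seedlings in light. The ubiquitin ligase COP1 with its SPA partners marks HY5 and many B-box factors for breakdown in darkness, and active phytochromes and cryptochromes restrain it. BBX20, BBX21, BBX22 and BBX23 are known to promote photomorphogenesis with HY5, whereas BBX24, BBX25, BBX28 and BBX31 are known to repress it. BBX16 and BBX29 were not placed in either class here.

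The coding starts of BBX20 to BBX25, the 6 double B-box genes described here, are shown because these close relatives went in opposite directions. Each line holds the first 120 coding bases in RefSeq's TAIR10.1 genome, read 5′ to 3′ on the coding strand, and capitals mark bases that were the same in all 6.
BBX20: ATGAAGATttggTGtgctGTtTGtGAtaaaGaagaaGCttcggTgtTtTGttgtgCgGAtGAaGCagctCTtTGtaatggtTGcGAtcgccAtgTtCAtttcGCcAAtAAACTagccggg
BBX21: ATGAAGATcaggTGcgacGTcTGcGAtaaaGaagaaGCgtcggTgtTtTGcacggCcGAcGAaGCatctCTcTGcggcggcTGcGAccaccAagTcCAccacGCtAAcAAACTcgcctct
BBX22: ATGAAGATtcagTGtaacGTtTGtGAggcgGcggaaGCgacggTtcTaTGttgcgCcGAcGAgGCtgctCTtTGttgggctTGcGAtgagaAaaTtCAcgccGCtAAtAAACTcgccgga
BBX23: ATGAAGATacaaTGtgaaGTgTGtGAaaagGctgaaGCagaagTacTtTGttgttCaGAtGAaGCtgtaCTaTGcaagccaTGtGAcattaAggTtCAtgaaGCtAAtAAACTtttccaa
BBX24: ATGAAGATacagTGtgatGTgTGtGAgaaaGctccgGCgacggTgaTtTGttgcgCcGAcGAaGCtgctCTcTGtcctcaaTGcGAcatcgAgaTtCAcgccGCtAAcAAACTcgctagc
BBX25: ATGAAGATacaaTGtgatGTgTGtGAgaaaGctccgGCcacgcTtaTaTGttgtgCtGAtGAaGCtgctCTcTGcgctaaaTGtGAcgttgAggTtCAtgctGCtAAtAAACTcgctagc
All 6 genes shared 51 of these 120 bases (42.5%). BBX24 and BBX25 were the closest pair, with 102 of 120 bases the same (85%), and BBX21 and BBX23 the most distant, with 67 of 120 (55.8%). BBX20 and BBX21 shared 71.7%, BBX22 and BBX24 73.3%, and BBX23 and BBX25 70.8%.

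The members differed in length and in gene structure. Their longest coding sequences ran from 121 codons in BBX31, a short gene with a single B-box and no intron, to 392 codons in BBX16. BBX23 has 162 codons, the fewest of the 6 double B-box genes, against 331 in BBX21 and 319 in BBX22. BBX24 and BBX25, with 248 and 238 codons, have similar lengths, and so do BBX28 and BBX29, with 223 and 215. Between 96.4% (BBX20) and 100% of the 30-base stretches in their exons occurred once in the nuclear genome, so a read of that length seldom matches another place equally.

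**Figure D1:**
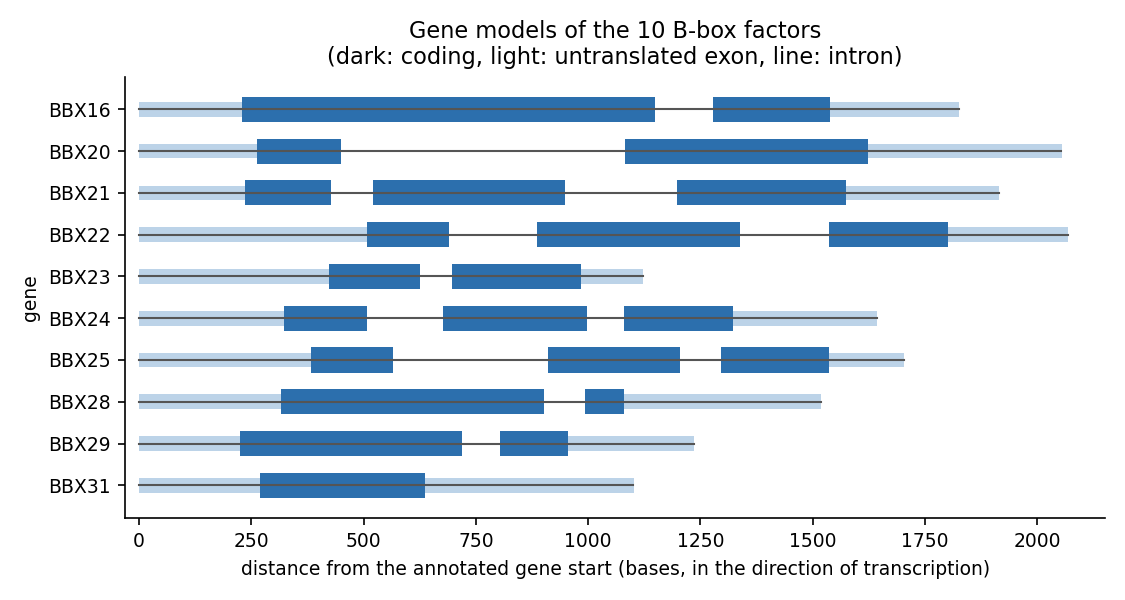
Gene models of the 10 B-box factors from the TAIR10.1 annotation, with distance from the annotated gene start in bases on the horizontal axis and 1 row per gene; dark boxes are coding, light boxes untranslated exon and lines introns. BBX31 has no intron, and BBX16 holds the longest coding sequence.

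The authors' first comparison set red light against darkness in MLB, with the question of what epidermal phyB induces. It held no line without phyB, so effects of phyB cannot be told apart from other effects of red light. Of the 10 B-box factors, 5 rose in red light, 3 fell and 2 had no row, where 19.5% of the 19916 genes tested were listed, 12.8% as higher in red light and 6.76% as higher in darkness. Since the genes were chosen with earlier results of these data known, the share of 8 in 10 is a description and not a test. The sizes spanned nearly the whole table. BBX23 was near the bottom and BBX16 near the top, while BBX22, BBX24, BBX20 and BBX21 lay within the bulk of listed genes.

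**Figure D2:**
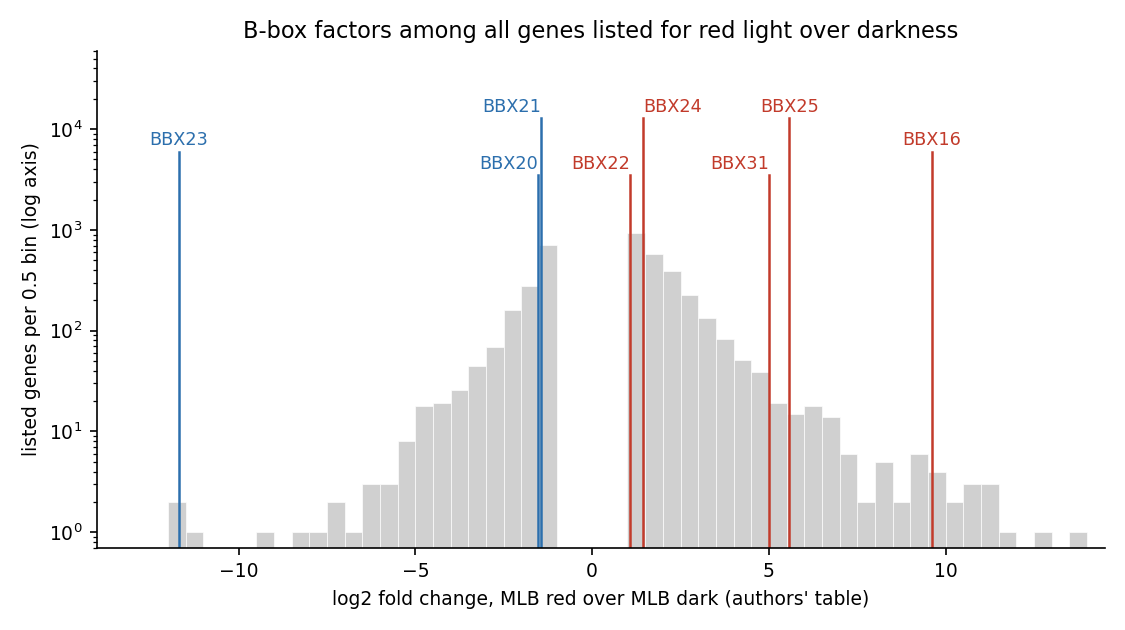
Log2 fold changes of MLB in red light over MLB in darkness from the authors' table on the horizontal axis, with gray bars for the number of listed genes per bin of 0.5 on a log axis and a line for each of the 8 listed B-box factors. BBX23 at -11.69 and BBX16 at 9.61 lie in the sparse tails, and 4 of the 8 lie between -1.52 and 1.44. The height of a line carries no value.

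Of the 4 factors classed here, after the values were seen, as promoting photomorphogenesis, BBX20, BBX21 and BBX23 fell in red light and BBX22 rose. BBX23 (AT4G10240, chr4:6368829-6369950, minus strand) had a log2 fold change of -11.69 in the authors' deposited table, 3295-fold, with an FDR of 4.40e-89. Of the 1347 genes listed as higher in darkness, 1 other fell as far or farther than BBX23. A ratio of that size can rest on few reads in red light, and the reads behind it were not given.

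BBX20 (AT4G39070, chr4:18204631-18206684, minus strand), also known from brassinosteroid signalling, fell by 1.52 on the log2 scale in the authors' deposited table, 2.88-fold (FDR 2.12e-34). BBX21 (AT1G75540, chr1:28365824-28367738, plus strand), which activates HY5 itself, fell by 1.44, 2.71-fold (FDR 2.60e-37), in the authors' deposited table. Both falls were of middling size, since 46% and 52.1% of the genes listed as higher in darkness fell as far or farther, and the median fall was -1.47. BBX22 (AT1G78600, chr1:29566863-29568931, plus strand), which acts with HY5 and is broken down through COP1, had a log2 fold change of 1.08, 2.12-fold (FDR 4.24e-14), in the authors' deposited table. That rise lay close to the listing threshold of 1, and 92.6% of the 2540 listed rises were as large or larger.

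Among the repressors, BBX24, BBX25 and BBX31 rose and BBX28 had no row. BBX25 (AT2G31380, chr2:13381767-13383470, plus strand), which binds HY5 and lessens its activity, had a log2 fold change of 5.58 in the authors' deposited table, 47.7-fold, with its FDR listed as 0. It was 1 of 40 genes whose p-value was listed as 0, and 3.23% of the listed rises were as large or larger. Its close relative BBX24 (AT1G06040, chr1:1828340-1829983, minus strand), also called STO, had a log2 fold change of 1.44, 2.70-fold (FDR 1.00e-51), in the authors' deposited table. For BBX24, 66.5% of listed rises were as large or larger, so the pair with the most similar coding starts stood far apart in size.

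BBX31 (AT3G21890, chr3:7708833-7709933, minus strand) is a single B-box gene also called MIP1A. Its log2 fold change was 5.01, 32.2-fold (FDR 4.83e-53), in the authors' deposited table. BBX31 came 101st by size among the 2540 rises, among the largest 3.98%. BBX28 (AT4G27310, chr4:13675537-13677055, plus strand) and BBX29 (AT5G54470, chr5:22114304-22115539, minus strand), single B-box relatives of each other, had no row. Whether they missed a threshold or were not tested cannot be told apart from the table.

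BBX16 (AT1G73870, chr1:27778984-27780809, plus strand), also called COL7, is a CONSTANS-like gene with a B-box and a CCT domain, known for a role in branching and in shade. Its log2 fold change of 9.61, 780-fold (FDR 4.46e-239), was the largest rise of the 10 in the authors' deposited table. Only 14 of the 2540 listed rises, BBX16 included, were as large or larger. As for BBX23, a ratio of that size can rest on few reads, here in darkness, and the reads behind it were not given.

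Sorted by known role, the 4 promoting factors gave 1 rise and 3 falls, and the 4 repressing factors gave 3 rises, no fall and 1 gene with no row. This sorting was made after the values were seen and carries no test. Over all genes tested, 12.8% were listed as higher in red light and 6.76% as higher in darkness. BBX16, the largest rise, was placed in neither class, and the counts would change with its placement. The median log2 fold change of the 8 listed factors was 1.26 in the authors' deposited table, against a median of 1.75 among all rises and -1.47 among all falls. That median lies between changes of opposite sign and describes no single gene.

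Among the other 22 B-box genes, 8 were listed in red light over darkness (36.4%, against 19.5% of all genes tested), 7 as rises and 1 as a fall. The single B-box genes BBX32 and BBX30, relatives of BBX31, had log2 fold changes of 7.10 and 6.00 in the authors' deposited table. BBX30, also called MIP1B, is the closest relative of BBX31, and all 3 rose by more than 5 on the log2 scale. BBX14 and BBX15, relatives of BBX16 with the same pair of domains, had values of 2.18 and 2.72 in the authors' deposited table, and BBX17 of the same group had -2.30. BBX18, a double B-box gene, had 2.52, and the CONSTANS-like genes BBX2 and BBX3 had 1.75 and 3.04 in the authors' deposited table. In the TAIR10.1 annotation BBX2, BBX3, BBX14, BBX17 and BBX32 each overlap another locus, so reads of these 5 genes may be mixed with those of another, whereas BBX15, BBX18 and BBX30 overlap none.

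The 32 B-box genes were also sorted into structure groups by their domains, from textbook knowledge, after the values were seen and with no test. All 4 genes of group III (BBX14 to BBX17) and 7 of 8 of group IV (BBX18 to BBX25) had a row, against 3 of 7 of group V (BBX26 to BBX32), 2 of 6 of group I and 0 of 7 of group II. Group IV went both ways, with 4 rises and 3 falls, and its BBX19 had no row. The 3 listed genes of group V all rose. Over all genes tested, 19.5% were listed.

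**Figure D3:**
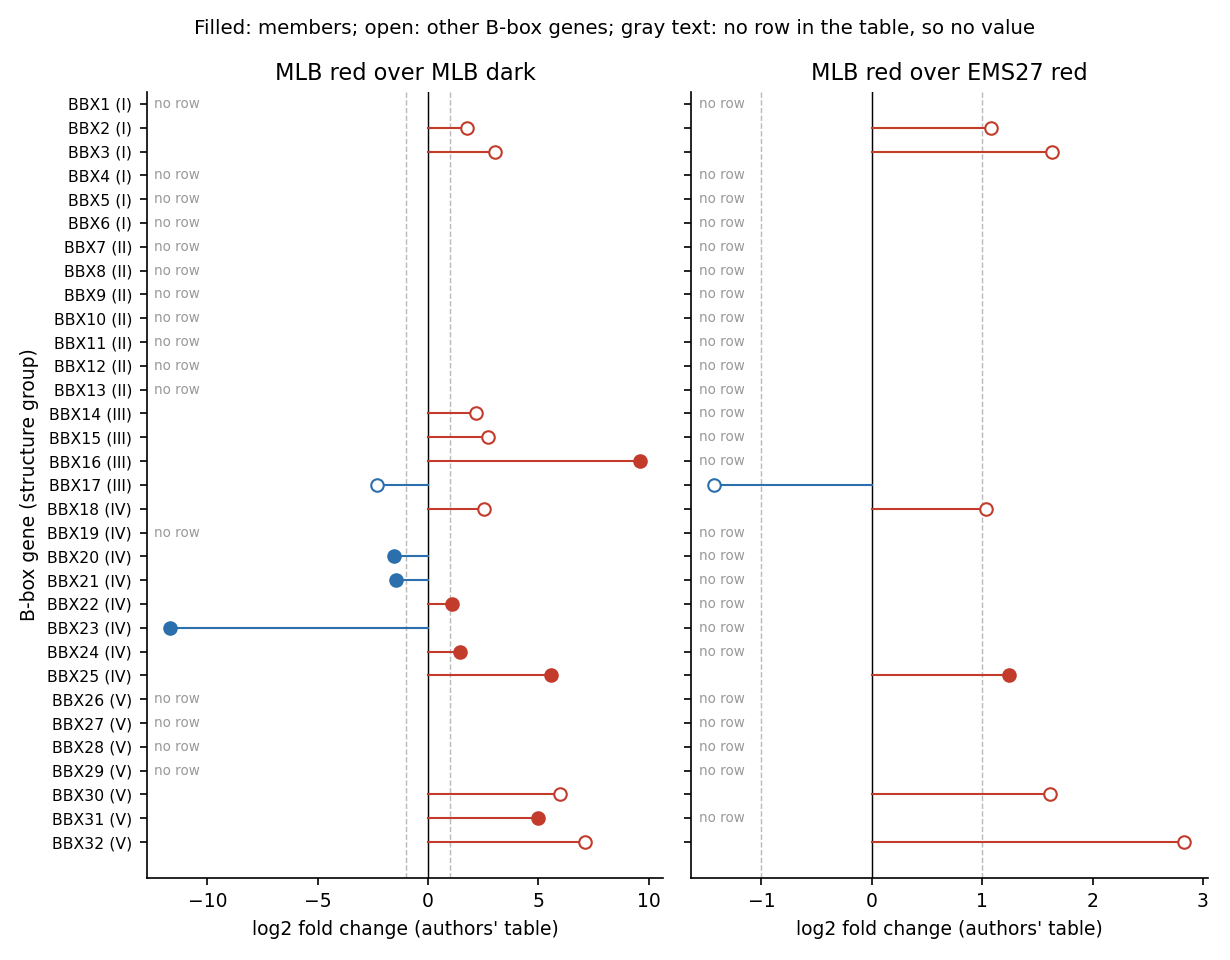
Log2 fold changes of all 32 B-box genes from the authors' tables, with MLB in red light over darkness on the left and MLB over EMS27 in red light on the right, on separate horizontal scales. Filled points are the 10 factors, open points other B-box genes, dashed lines the listing threshold of 1 in either direction, and genes without a row carry no point. On the right BBX25, at 1.25, is the one filled point.

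The genes around the B-box factors in the pathway also went both ways. Of 25 HY5, COP1 and photoreceptor partners, 9 rose and 3 fell in red light (48% listed, against 19.5% of all genes tested). Neither HY5 nor COP1 had a row. HYH, the HY5 homologue, had a log2 fold change of 2.89, and the COP1 partners SPA1, SPA3 and SPA4 had 2.15, 2.21 and 1.65 in the authors' deposited table. RUP1 and RUP2, which switch off the UV-B receptor, had 1.06 and 3.31 in the authors' deposited table. The growth-promoting bHLH genes PIF4, PIF5 and PIF7 had 1.76, 2.32 and 4.43 in the authors' deposited table, whereas PIF3, of the same family, had -1.58. PHYA, the far-red receptor gene, had -1.70, and HFR1, an inhibitor of PIF proteins, had -2.93 in the authors' deposited table.

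Of 16 output genes of HY5 and the B-box factors, 6 rose and 2 fell (50% listed, against 19.5% of all genes tested). The flavonoid synthesis genes CHS, CHI, F3H and FLS1 had log2 fold changes of 1.98, 2.30, 3.54 and 2.36 in the authors' deposited table. The carotenoid synthesis genes BCH2 and PSY had 2.91 and 2.24 in the authors' deposited table. Falls were listed for MYB111, an activator of flavonol synthesis, at -1.13, and for ELIP1, a light stress protein gene, at -1.28, in the authors' deposited table.

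Markers of several tissues moved with the light comparison. Of 13 markers of tissues in a whole seedling, 8 were listed (61.5%) and all 8 rose in red light. Of all genes tested, 12.8% were listed as higher in red light. The stomatal genes SPCH, TMM and FAMA had log2 fold changes of 1.78, 1.12 and 2.1 in the authors' deposited table. The root hair genes EXPA7, EXPA18 and COBL9 had 2.14, 2.21 and 2.01, and the green tissue genes LHCB1.3 and RBCS3B had 3.62 and 2.85, in the authors' deposited table. The epidermal genes ATML1, PDF1 and FDH and the vascular genes SUC2 and IRX3 had no row. The part of these tissues in the B-box results was not tested. In whole seedlings, more or fewer cells of a type cannot be told apart from more or less RNA per cell. With no levels listed, the labelled tissue could not be checked further.

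The second comparison set MLB against EMS27 in red light, with the question of which genes the rrc1 mutation changes. It held no other rrc1 line and no dark libraries. Effects of rrc1 therefore cannot be told apart from other differences between these lines, or from differences also present in darkness. BBX25 was the only B-box factor of the 10 with a row, higher in MLB than in EMS27, and the other 9 had none, where 5.99% of 19143 genes were listed, 4.14% as higher in MLB and 1.85% as higher in EMS27. A count of 1 in 10 is near that background. BBX25 had a log2 fold change of 1.25, 2.37-fold, with a p-value of 6.43e-40 and an FDR of 7.69e-38 in the authors' deposited table. Among the 792 genes higher in MLB, 53.5% differed as much or more, and their median was 1.27.

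BBX16, BBX23 and BBX31, which had large changes between red light and darkness, had no row between MLB and EMS27. Both comparisons rest on the same 3 libraries of MLB in red light, so their values are only set side by side. For BBX25 the authors' deposited tables gave 5.58 for red light over darkness and 1.25 for MLB over EMS27.

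Of the other 22 B-box genes, 6 were listed in this comparison (27.3%), against 1 of the 10 factors, and that difference was not tested. Over all genes tested, 5.99% were listed. BBX32, BBX3, BBX30, BBX2 and BBX18 were higher in MLB, with log2 fold changes of 2.83, 1.63, 1.62, 1.08 and 1.03 in the authors' deposited table, and BBX17 was lower, at -1.42. Of the relatives BBX30, BBX31 and BBX32, therefore, BBX31 alone had no row. Of the 25 partners, HYH and RUP2 were listed (8%, near that share), at 1.66 and 1.40 in the authors' deposited table. Of the 16 output genes, 3 were listed (18.8%): BCH2 at 1.73, the repressor gene MYBL2 at 1.10 and the anthocyanin synthesis gene DFR at -1.95 in the authors' deposited table. Of the 13 tissue markers, RBCS3B alone was listed (7.69%, near the 5.99% of all genes), at 1.08 in the authors' deposited table.

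Promoters were compared for the factors that moved most and for BBX24, whose upstream sequence held a clock motif. Each line gives the 250 bases before the annotated start in TAIR10.1, 5′ to 3′ on the gene's strand, with motif matches in capitals. BBX16 lies on the plus strand (chr1:27778734-27778983), and BBX23 (chr4:6369951-6370200) and BBX24 (chr1:1829984-1830233) lie on the minus strand.
BBX16: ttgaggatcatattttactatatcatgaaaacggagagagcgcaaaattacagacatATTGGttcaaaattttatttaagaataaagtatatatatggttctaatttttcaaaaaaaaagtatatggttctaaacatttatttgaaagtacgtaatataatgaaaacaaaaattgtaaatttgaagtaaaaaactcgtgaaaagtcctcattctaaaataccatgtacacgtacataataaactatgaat
BBX23: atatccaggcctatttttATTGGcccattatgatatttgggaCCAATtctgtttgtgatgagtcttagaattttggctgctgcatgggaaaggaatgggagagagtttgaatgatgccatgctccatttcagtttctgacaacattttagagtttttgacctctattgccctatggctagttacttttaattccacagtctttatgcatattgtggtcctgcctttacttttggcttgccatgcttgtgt
BBX24: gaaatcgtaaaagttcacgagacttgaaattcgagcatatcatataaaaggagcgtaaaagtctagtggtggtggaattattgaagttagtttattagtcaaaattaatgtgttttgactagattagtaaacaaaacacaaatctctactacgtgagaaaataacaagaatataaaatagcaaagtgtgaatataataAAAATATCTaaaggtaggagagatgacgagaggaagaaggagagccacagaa
The motifs were searched on both strands in the 10 genes and in all 27443 promoters of the same length. The G-box CACGTG, known as a binding site of HY5 and PIF proteins, was in none of the 10 and in 6.49% of all promoters. The related CACGTT and CATGTG were in none of the 10 and in 7.54% and 11.1% of all. CCAAT, or its reverse ATTGG, was in BBX16, BBX21, BBX23, BBX25 and BBX28, which is 5 of 10 against 46% of all promoters. BBX23 held it at 2 places, positions -232 and -208 from the start. The windows of BBX22 and BBX25 overlap the neighbouring genes AT1G78590 and AT2G31370, which lie 50 and 5 bases upstream. A match there, such as CCAAT in BBX25, may therefore lie within the neighbouring gene. The evening element AAAATATCT was in BBX24 alone, at position -52 from the start, and in 2.36% of all promoters, and AAAAATCT was in BBX28 alone, against 6.69% of all. No motif overlapped another in the promoters shown, a match is only a run of letters, and the absence of one says nothing about a factor elsewhere.

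The surroundings of the genes were read for signals that could be shared. Of the 20 nearest neighbours of the 10 factors, 3 were listed in red light over darkness and none in MLB over EMS27. Of all genes tested, 19.5% and 5.99% were listed, so the neighbours were not listed more often than other genes. ATHSP22.0, a small heat shock protein gene, starts 387 bases from BBX23 on the opposite strand and had a log2 fold change of -5.46 in the authors' deposited table. That is a fall, as for BBX23, and a link between the 2 genes was not tested. AT4G27300, next to BBX28, had 2.80 in the authors' deposited table, while BBX28 had no row. BBX10 lies 486 bases from BBX31 and had no row, so of these B-box neighbours only BBX31 was listed.

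Overlapping loci limit the value of BBX24 in particular. AT1G06045 lies on the opposite strand within BBX24, over 344 bases, and its exons share 267 bases with BBX24, which is 18.1% of BBX24's exonic length. AT1G06045 was itself listed, with a log2 fold change of 1.34 in the authors' deposited table, next to 1.44 for BBX24. Whether reads were counted by strand was not given in the sources used here, so reads of these 2 loci cannot be told apart. BBX25 shares 48 bases with AT2G31390 (3.79% of its exonic length) and BBX20 shares 4 bases with AT4G39060, neither of which had a row, and the other 7 factors overlap no annotated locus.

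None of the 10 factors, 9 of which hold 15 annotated introns, had an event in the splicing tables. These tables held 325 events in 264 genes for MLB and EMS27 and 328 events in 270 genes for Col-0 and rrc1-689, all in red light. With 19143 genes tested at the gene level between MLB and EMS27, few genes of any kind had an event. None among 10 is therefore near the background and no trait of these factors. Events were listed where the fraction of inclusion or retention differed by more than 0.05 and the FDR of the bin was below 0.05. A factor without an event may have been spliced alike, or have had too few reads, and these cannot be told apart here.

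The one B-box gene with a splicing event was BBX27, a single B-box relative of BBX28 and BBX29 in group V. An intron of BBX27 (AT1G68190, chr1:25559792-25560074, plus strand, 283 bases) was retained more often in both rrc1 mutants. Its splice sites are shown because they mark where the intron stays in, with 15 exon bases in capitals and 25 intron bases in lower case, from TAIR10.1.
BBX27 donor: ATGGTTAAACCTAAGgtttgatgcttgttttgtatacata
BBX27 acceptor: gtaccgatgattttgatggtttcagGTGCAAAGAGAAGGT
All 3 annotated transcripts remove this intron. Read on in frame from the coding exon, its first stop codon begins at base 4 of the intron.

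The level of retention is the share of exon-intron boundary reads in all reads of the event, with exon-exon junction reads counted doubly, since retention has 2 boundaries. Levels were 3.35%, 6.57% and 6.74% in MLB and 14.1%, 17.2% and 17.6% in EMS27. Every EMS27 library lay above every MLB library. The mean rose from 5.55% ± 1.91 in MLB to 16.3% ± 1.89 in EMS27 (SD, n = 3 each), 2.93-fold, with a logit difference of 1.21 ± 0.297 (SE) and a limma adjusted p of 0.00923. That table is made of events the authors had already listed for a difference, and 89.5% of its 325 events passed this test, 58.2% as higher in the mutant.

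In Col-0 the level was 3.50%, 5.26% and 10.5%, and in rrc1-689 it was 13.1%, 14% and 15%. The groups did not overlap here either, but 1 Col-0 library lay closer to the mutant than to the other Col-0 libraries. The mean rose from 6.44% ± 3.67 to 14% ± 0.991 (SD, n = 3 each), 2.18-fold, with a logit difference of 0.944 ± 0.331 (SE) and a limma adjusted p of 0.0308. Of the 328 events, 88.7% passed, 63.4% as higher in the mutant. An exact two-sided permutation test gave p = 0.1 for each pair of groups, the smallest that 3 against 3 allows. Leaving out any library other than the highest Col-0 one ended this call, with adjusted p between 0.0642 and 0.0800 and logit differences between 0.684 and 0.985, and without that library the adjusted p was 0.00859.

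The effect on the BBX27 intron was not shown to differ between the mutants. The difference of the logit differences was 0.262 ± 0.427 (SE), with a 95% interval from -0.683 to 1.21 and a limma adjusted p of 0.977 over 136 shared events in 12 libraries. Between 103 and 174 reads per library lay behind each level in MLB and EMS27, and between 131 and 260 in Col-0 and rrc1-689. BBX27 had no row in either gene table.

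**Figure D4:**
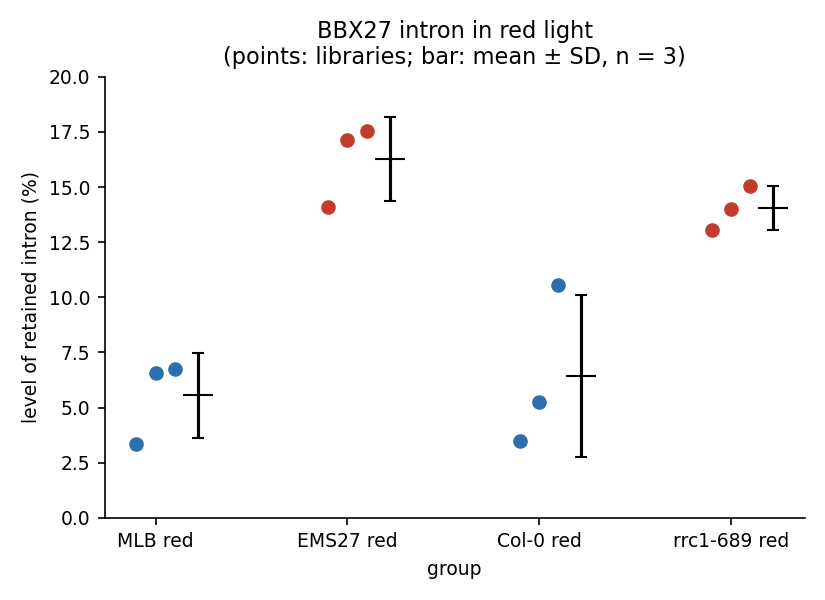
Level of the retained BBX27 intron in percent on the vertical axis, by group in red light, with a point for each of the 3 libraries and a bar for mean ± SD. The EMS27 and rrc1-689 points, from 13.1% to 17.6%, all lie above the MLB and Col-0 points, from 3.35% to 10.5%.

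Among the partners, COP1 had an event in MLB and EMS27, in an intron at chr2:13980525-13981051 (plus strand) that both annotated transcripts remove. No partner, COP1 included, had an event listed for Col-0 and rrc1-689. Its level was 3.57%, 4.55% and 0% in MLB and 17.2%, 14.3% and 9.09% in EMS27, on 17 to 29 reads per library. The mean was 2.71% ± 2.39 in MLB and 13.5% ± 4.13 in EMS27 (SD, n = 3 each), with a limma adjusted p of 0.0190. The events tested had been listed for a difference already, and 89.5% of them passed. In the MLB library at 0%, the 3 boundary reads that a count of 0 allows beside its 27 junction reads would give a level of 5.26% (counting error only). No library held a read at 1 of the 2 boundaries of this intron, so its level rests on reads at the other. Retention of the whole intron is therefore not shown. Without EMS27 replicate 1 the call was lost (adjusted p 0.0567), with a logit difference of 1.58 against 1.73 with all 6 libraries.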

How the data were processed

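Per the submitters' processing notes, reads were aligned with TopHat2 2.1.1 to TAIR10, and per the deposited information sheet the authors used ASpli 1.9. The treatment of strand and shared reads is not given in the sources used here. For each listed gene the authors deposited a log2 fold change, a p-value and an FDR, and their calls were taken as they stand, with no new gene test. How many genes had been tested followed from FDR = p × N / rank, which gave a whole rank within 0.01 for 98.0% (N = 19916) and 96.9% (N = 19143) of listed genes. For splicing events the authors deposited raw read counts per junction in 12 red-light libraries, with their own fraction per group. Levels were computed per library from these counts and tested with limma 3.58.1 (R 4.3.3) on the logit with 0.5 added to both read sums, adjusted by Benjamini-Hochberg over all listed events, with a threshold of 0.05. Only the groups compared entered a fit, except for the difference between mutants. The fits were also run on simulated counts with counting error only, which lack the further spread of real libraries. They were drawn at totals that count junction reads doubly for events with 2 boundaries. Their counting error is thus smaller than that of the real reads, and the shares of shifted events called are likely too high. At a logit shift of 1, 66% of events were called with the MLB and EMS27 totals and 61% with the Col-0 and rrc1-689 totals. Of unshifted events, 4% and 1.56% were called.

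Annotation and sequences came from RefSeq TAIR10.1, in which 4373 of the 4376 listed genes found there had the same start and end as in the deposited tables. The members and gene lists were chosen with earlier results of these data known. The genes named are all 10 factors, every other B-box gene with a row, the listed genes of the other lists (the 25 largest changes per comparison, beyond which RUP1, TMM and MYB111 are named too), and every event in a B-box or partner gene; loci that neighbour or overlap a member were named after their values were seen. Alternatives were stricter thresholds for gene calls and, for splicing, another pseudocount, a minimum of 10 reads, a replicate block, all red-light groups in 1 fit and leaving out each library.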

Additional observations from a re-analysis of the deposited data

How the results depend on the processing

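With an absolute log2 fold change above 2, 4 of the 8 listed B-box factors passed in red light over darkness (BBX16, BBX23, BBX25 and BBX31), and 0 of 1 in MLB over EMS27. With an FDR below 0.001, or Bonferroni adjustment at 0.01, the counts stayed at 8 and 1. Both kinds of threshold act on the authors' own values, and no library could be left out of the gene comparisons. No paired analysis was possible for genes because the gene tables hold no values per library.

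For splicing, the count of B-box events that changed was 1 between MLB and EMS27 under all 10 alternatives run. Between Col-0 and rrc1-689 it ranged from 0 to 1 when 1 library was left out, with 5 of 6 such fits at 0, and was 1 under the other alternatives. The logit difference of BBX27 kept its sign throughout, from 0.978 to 1.33 and from 0.684 to 1.26 when 1 library was left out. Across all alternatives its limma adjusted p ran from 0.00331 to 0.0325 and from 0.00859 to 0.0800. With the replicate block the counts were 1 and 1, and the adjusted p of BBX27 was 0.0178 and 0.0407. Deviations of same-numbered libraries from their group means had correlations from -0.0240 to 0.109 and from -0.0778 to -0.000711 over the listed events. Such values cannot tell whether these libraries were grown or prepared together, since counting error alone can hide a shared deviation.

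Depth limits the COP1 event most, with 17 to 29 reads per library.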

Other observations

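In the wider window of 1000 bases before the start, the motifs were more common in the B-box factors and in all promoters alike. CACGTG was in BBX28 and BBX29, which is 2 of 10 against 14.8% of all 27443 promoters. CACGTT was in BBX22, BBX23 and BBX25 (3 of 10 against 23.8% of all), and CATGTG in BBX20 and BBX24 (2 of 10 against 37.7%). The evening element AAAATATCT was in BBX22, BBX24, BBX28 and BBX29, which is 4 of 10 against 7.24% of all promoters. AAAAATCT was in BBX22, BBX24, BBX28, BBX29 and BBX31 (5 of 10 against 21.1% of all), and CCAAT was in all 10 (89.9%). These are matches of letters in either strand, given without a test.

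Within 2 genes on either side of the 10 factors, 7 of 40 neighbours were listed in red light over darkness and 2 of 40 in MLB over EMS27. The shares over all genes tested were 19.5% and 5.99%, so these counts are near the background. CYCP2;1, a cyclin gene near BBX31, had log2 fold changes in the authors' deposited tables of 1.76 (red light over darkness) and 1.27 (MLB over EMS27).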
